A study of Homo sapiens with 4 samples.

Results

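The extracellular matrix genes described here are the protein-coding genes of GENCODE release 29 whose symbol is COL followed by a digit or begins with LAMA, LAMB or LAMC, together with FN1, THBS1, THBS2, SPARC, TNC, NID1, NID2, FBN1, FBN2, HSPG2 and AGRN. The rule found 68 genes among the 58825 gene rows of the count tables. One of them, COL4A3BP, encodes a ceramide transfer protein and not a collagen, and the counts are therefore also given for the other 67. RNA was sequenced from LoVo cells, a human colorectal adenocarcinoma line in which the MET receptor stays uncleaved and active. MET+ cells (2 libraries) carry the wild type gene and are labelled as the GFP control. MET-KO cells (2 libraries) were knocked out for MET with CRISPR/Cas9 after co-transfection of a Cas9 and puromycin resistance plasmid, a GFP plasmid and the guide, followed by puromycin and the picking of single clones, so the knockout rests on clonal lines. The sources used here do not say whether both MET-KO libraries came from 1 clone. All cells were grown in DMEM with serum. The libraries are described as biological replicates, and p-values measure the spread between these 4 libraries.

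Collagens are triple helices of 3 chains. Fibrillar collagens form the fibres of connective tissue, and collagen IV forms the network of basement membranes, the thin sheets on which epithelia rest. Laminins are trimers of 1 alpha, 1 beta and 1 gamma chain found at the basal surface of epithelial cells, where integrins bind them. Nidogens and perlecan link laminins to collagen IV. Fibronectin, thrombospondin-1, tenascin-C and SPARC are glycoproteins of provisional or remodelled matrix. In the intestine, epithelial cells make laminin chains, whereas much of the fibrillar collagen comes from fibroblasts of the underlying stroma.

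The libraries held between 8429142 and 10286552 counts, so that 3 counts, taken as the upper limit for a gene at 0, equal 0.292 to 0.356 CPM, the unit used here for counts relative to library size. Such limits and all count intervals cover counting error only. The 4 libraries gave 5237 and 6098 counts on the matrix genes in MET+ cells and 8607 and 9397 in MET-KO cells, under 0.1% of each library. The targeted gene MET had 337.0 and 335.3 CPM in MET+ and 84.3 and 88.7 CPM in MET-KO cells, a log2 fold change of -1.96 (standard error, SE, 0.09, adjusted p = 1.49e-18), so the 3′ signal of the gene fell to 25.7% of its MET+ level. The groups differed widely. Among 13801 genes tested with edgeR's quasi-likelihood test and Benjamini-Hochberg adjustment, 7467 (54.1%) passed an adjusted p of 0.05, and log2 CPM over these genes correlated at 0.985 and 0.99 within groups but at 0.827 to 0.832 between them. The median log2 fold change of single chromosomes ran from -0.51 to 0.50, and 17 chromosome Y genes were at 0 in both MET+ libraries and detected in both MET-KO libraries. The part of such differences between the lines in the results for matrix genes was not tested. For matrix genes on chromosomes with a median of at least 0.30 in size, the log2 fold change is also given less that median, once over all tested genes of the chromosome and once over those not called.

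Of the 68 matrix genes, 28 had enough counts to be tested and 40 did not. Among the 28, 16 were higher in MET-KO cells (57.1%), beside 27.2% of all tested genes, and 8 were lower (28.6%), beside 26.9% of all tested genes. The other 4, COL1A1, COL13A1, HSPG2 and NID2, did not pass. The median log2 fold change of the 28 genes was 0.79, against 0.01 over all tested genes. With a log2 fold change of at least 1 in size required as well, 12 were higher and 5 lower (14.5% and 9.81% of all tested genes). Without COL4A3BP, 16 of 27 were higher and 7 lower (median 0.83). The libraries of the groups did not overlap for 19 genes higher and 8 lower in MET-KO cells, beside 38.5% and 37.1% of all tested genes (75.6% in either direction). Many of these genes are low, and a gene that is low in 1 group passes the filter mainly through the other. Among the 13 with a mean of at least 100 counts, an analysis added after seeing the data, 7 were higher (53.8%) and 5 lower (38.5%), beside 25.5% and 32.8% of 8843 genes at that level, and their median was 0.44 against -0.05.

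**Figure D1:**
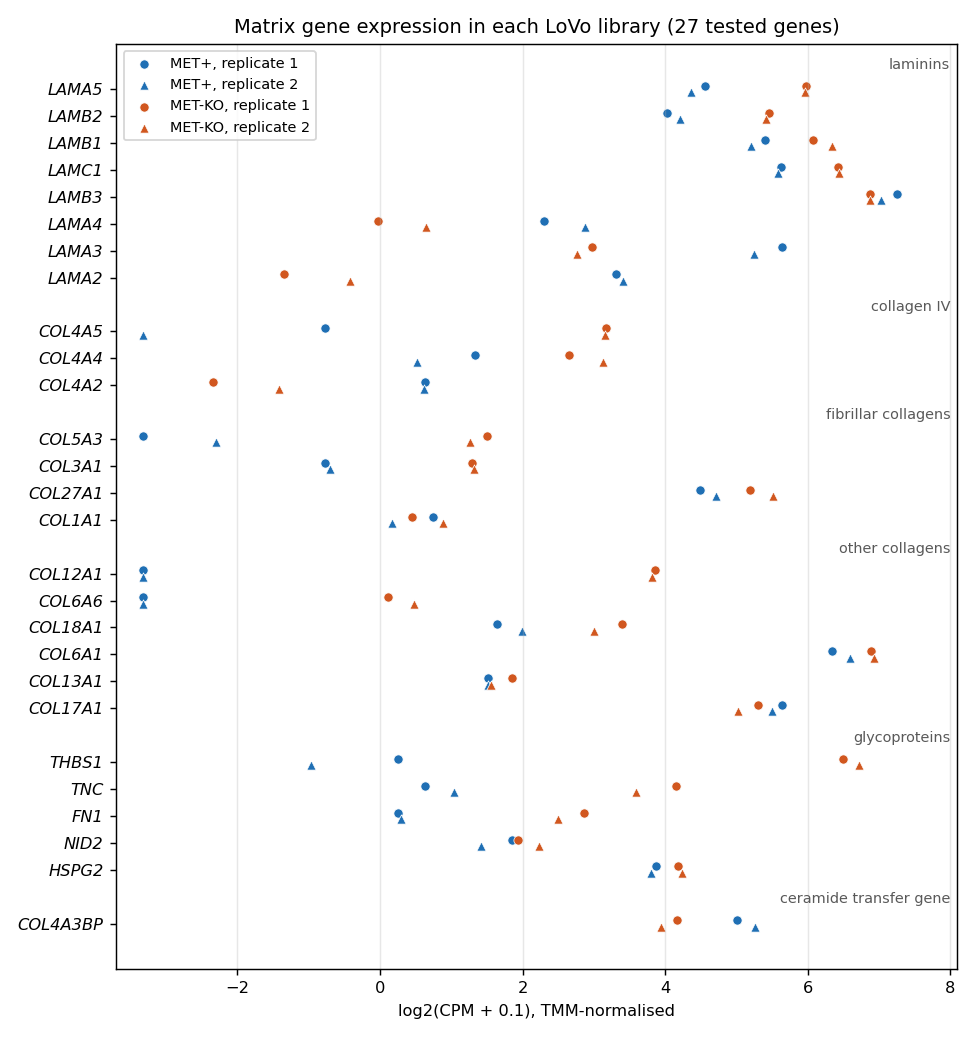
Expression of 27 of the tested genes in each library, on a scale of log2(CPM + 0.1), grouped by class; blue points are MET+ and orange points MET-KO libraries, circles replicate 1 and triangles replicate 2. THBS1 and COL12A1 show the widest gaps with MET-KO above MET+, and LAMA2 and LAMA3 lie well below in MET-KO cells, while COL1A1 and COL13A1 sit close together.

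The summed level of all matrix genes was 631.8 and 624.8 CPM in the MET+ libraries and 842.5 and 863.8 CPM in the MET-KO libraries. Both MET-KO sums lay above both MET+ sums, with a ratio of the means of 1.36. An exact two-sided permutation test of 2 against 2 libraries cannot go below p = 0.33, so the sums are given as values. In a bulk sample, a change in the number of cells that express a gene and a change in RNA per cell cannot be told apart. The gene with the most counts was LAMB3 in MET+ cells (24.2% and 20.9% of the counts on matrix genes) and COL6A1 in MET-KO cells (14% and 14.2%). THBS1 went from 0.172% and 0.0656% of these counts to 10.7% and 12.2%. Without THBS1, but with COL4A3BP, the ratio of the summed levels was 1.2.

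Laminins gave the largest part of the signal and moved in both directions. Of 12 laminin genes, 9 were tested (median log2 fold change -0.27). MET-KO cells had 4 of them higher (44.4%) and 5 lower (55.6%), beside 27.2% and 26.9% of all tested genes. Their summed level was 406.7 and 383.1 CPM in MET+ and 437.6 and 444.7 CPM in MET-KO cells. The sum changed by a ratio of only 1.12, whereas single chains changed by more.

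Among alpha chains, which carry the main integrin-binding region, LAMA3 (ENSG00000053747, chromosome 18, 23689443 to 23956222 on GRCh38), the alpha chain of the epithelial laminin-332, had 49.5 and 37.8 CPM in MET+ and 7.73 and 6.71 CPM in MET-KO cells. Both MET-KO libraries were far below both MET+ libraries, and LAMA3 fell by 2.59 on the log2 scale (SE 0.17, adjusted p = 6.75e-15). LAMA5 (ENSG00000130702, chromosome 20, 62307955 to 62367312), the alpha chain of laminin-511 and laminin-521, ran the other way. It had 23.4 and 20.5 CPM in MET+ and 62.9 and 62.1 CPM in MET-KO cells, a log2 fold change of 1.51 (SE 0.12, adjusted p = 2e-12). LAMA2 (ENSG00000196569, chromosome 6, 128883141 to 129516569), the alpha chain of the laminin of muscle and peripheral nerve, had 81 and 102 counts in MET+ and 3 and 7 in MET-KO cells. That is 9.77 and 10.5 CPM against 0.294 and 0.643 CPM, a log2 fold change of -4.38 (SE 0.41, adjusted p = 4.35e-11). It was -5.04 without MET-KO replicate 2 and -3.95 without MET-KO replicate 1. LAMA4 (ENSG00000112769, chromosome 6, 112108760 to 112254939), a chain best known from vessel walls, had 40 and 71 counts in MET+ and 9 and 16 in MET-KO cells. It fell by 2.35 on the log2 scale (SE 0.40, adjusted p = 5.76e-06), with no overlap of the groups.

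Among beta chains, LAMB3 (ENSG00000196878, chromosome 1, 209614870 to 209652466), the partner of LAMA3 in laminin-332, had 152.6 and 130.4 CPM in MET+ and 117.2 and 117.3 CPM in MET-KO cells. Its change was small, a log2 fold change of -0.27 (SE 0.10, adjusted p = 0.0195), and was lost without MET+ replicate 1 (-0.15, adjusted p = 0.34), with DESeq2 (adjusted p = 0.0739) and with scaling by library totals alone (-0.17, adjusted p = 0.147). LAMB1 (ENSG00000091136, chromosome 7, 107923799 to 108003255), a beta chain found in most tissues, had 42.1 and 36.8 CPM in MET+ and 67 and 81 CPM in MET-KO cells, and rose by a log2 fold change of 0.91 (SE 0.12, adjusted p = 5.26e-08). The genes of chromosome 7 had a median of 0.50, and less that median LAMB1 stood at 0.41, or at 0.80 less the median of the genes not called. LAMB2 (ENSG00000172037, chromosome 3, 49121114 to 49133118), the beta chain of laminin-521, had 16.2 and 18.3 CPM in MET+ and 43.9 and 42.7 CPM in MET-KO cells. Its MET-KO libraries lay clearly above, with a log2 fold change of 1.32 (SE 0.14, adjusted p = 5.38e-10).

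LAMC1 (ENSG00000135862, chromosome 1, 183023460 to 183145592), the gamma chain of most laminins, had 49.2 and 47.9 CPM in MET+ and 85.8 and 87 CPM in MET-KO cells. The groups did not overlap, and LAMC1 rose by a log2 fold change of 0.83 (SE 0.11, adjusted p = 3.43e-08). The 3 chains of laminin-511 (LAMA5, LAMB1 and LAMC1) and the beta chain of laminin-521 (LAMB2) were thus higher in MET-KO cells, each by its own test.

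Because a 3′ method counts about 1 fragment for each transcript whatever its length, chains can be compared within a library. Shares of the counts of the alpha and beta chains are given with 95% Wilson intervals. LAMA3 made up 56.6% (52.9 to 60.1) and 49.7% (46.1 to 53.3) of alpha chain counts in MET+ cells and 10.6% (8.57 to 13) and 9.38% (7.53 to 11.6) in MET-KO cells. LAMA5 made up 26.8% and 27% in MET+ and 86.1% (83.4 to 88.4) and 86.9% (84.3 to 89.1) in MET-KO cells. The most abundant alpha chain was thus LAMA3 in both MET+ libraries and LAMA5 in both MET-KO libraries. Alpha chain counts, not scaled to library depth, totalled 725 and 742 in MET+ and 747 and 778 in MET-KO cells. LAMA2 went from 11.2% and 13.7% to 0.402% and 0.9% of these counts. Among beta chains LAMB3 stayed the most abundant, at 72.4% and 70.3% in MET+ and 51.4% and 48.7% in MET-KO cells, and LAMB2 went from 7.67% and 9.88% to 19.2% and 17.7%.

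**Figure D2:**
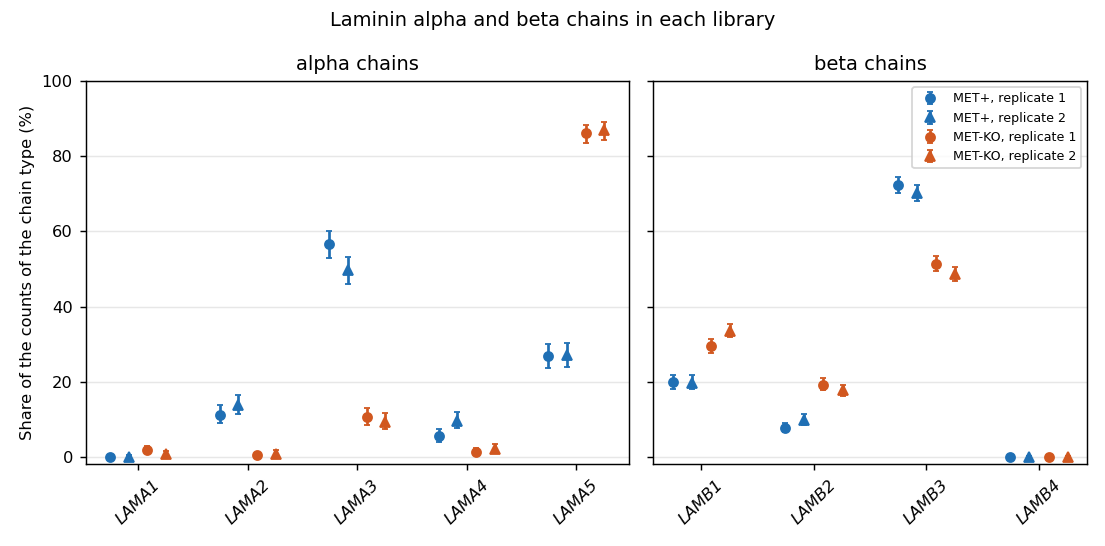
Share of each alpha and beta laminin chain, in percent of the counts of its chain type, in each library; blue is MET+ and orange MET-KO, circles are replicate 1, triangles replicate 2, and bars are 95% Wilson intervals. LAMA3 drops from 56.6% and 49.7% to 10.6% and 9.38% while LAMA5 reaches 86.1% and 86.9%, and LAMB3 stays the leading beta chain.

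Collagen IV, the network-forming collagen of basement membranes, was low in all libraries. Its 6 genes summed to 4.34 and 2.77 CPM in MET+ and 16.2 and 18.8 CPM in MET-KO cells, a ratio of 4.92. COL4A5 (ENSG00000188153, chromosome X, 108439844 to 108697545), which forms a trimer with the alpha3 and alpha4 chains, had 4 and 0 counts in MET+ and 91 and 96 in MET-KO cells. The ratio of the counts per depth was 40 (95% exact interval 15.4 to 148.3, adjusted p = 2.43e-10), and since all MET+ counts came from replicate 1, the fitted log2 fold change of 5.24 ran from 4.16 without MET+ replicate 2 to 9.51 without MET+ replicate 1. COL4A4 (ENSG00000081052, chromosome 2, 227002711 to 227164453), another chain of that trimer, had 20 and 13 counts in MET+ and 63 and 94 in MET-KO cells, a log2 fold change of 2.0 (SE 0.35, adjusted p = 1.11e-05). Both rose. The third chain of the trimer, COL4A3, was too low for the test, with 0 counts in both MET+ and 5 and 9 in the MET-KO libraries, at least 1.97-fold higher. COL4A2 (ENSG00000134871, chromosome 13, 110305812 to 110513209), a chain of the common collagen IV of all basement membranes, had 12 and 14 counts in MET+ and 1 and 3 in MET-KO cells. The log2 fold change of -2.85 (SE 0.73, adjusted p = 0.00133) was lost with DESeq2 (adjusted p = 0.0576) and without MET-KO replicate 1 (-2.34, adjusted p = 0.0939), and was -3.71 without MET-KO replicate 2. COL4A1, its partner chain, had 0 and 0 counts in MET+ and 6 and 1 in MET-KO cells.

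Of 11 fibrillar collagens, 4 were tested. In MET-KO cells 3 were higher (75%) and none lower, beside 27.2% and 26.9% of all tested genes. COL27A1 (ENSG00000196739, chromosome 9), known from cartilage, was the most abundant, with 22.3 and 26.2 CPM in MET+ and 36.4 and 45.4 CPM in MET-KO cells. It rose by a log2 fold change of 0.75 (SE 0.14, adjusted p = 2.33e-05). The other fibrillar collagens were near the limit of this depth, and COL3A1 and COL5A3 passed the low-count filter through their MET-KO libraries. COL3A1 (ENSG00000168542, chromosome 2), the collagen of reticular fibres, had 4 and 5 counts in MET+ and 24 and 26 in MET-KO cells, a log2 fold change of 2.22 (SE 0.56, adjusted p = 0.00109). COL5A3 (ENSG00000080573, chromosome 19, 9959561 to 10010471), a chain of the collagen V that is built into fibrils, had 0 and 1 count in MET+ and 28 and 25 in MET-KO cells. Its ratio of counts per depth was 45.3, with a wide exact interval of 7.79 to 1824.5 (adjusted p = 3.78e-06), and its fitted log2 fold change ran from 4.46 without MET+ replicate 1 to 7.63 without MET+ replicate 2. COL1A1 (ENSG00000108821, chromosome 17), the main chain of collagen I, had 13 and 10 counts in MET+ and 13 and 19 in MET-KO cells, a log2 fold change of 0.24 (SE 0.51, adjusted p = 0.718) with overlapping groups. COL1A2, the other chain of collagen I, was at 0 in every library.

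Among the 27 other collagens, 6 were tested, with 4 higher (66.7%) and 1 lower (16.7%), beside 27.2% and 26.9% of all tested genes. COL12A1 (ENSG00000111799, chromosome 6, 75084326 to 75206051), a collagen that sits on the surface of fibrils, was at 0 in both MET+ libraries and had 147 and 152 counts (14.4 and 14.0 CPM) in the MET-KO libraries. Against 3 counts per MET+ library it was at least 42.4-fold higher (adjusted p = 2.06e-14). COL6A1 (ENSG00000142156, chromosome 21, 45981737 to 46005050), a chain of the beaded filaments around cells, was the most abundant collagen, at 80.8 and 96.7 CPM in MET+ and 118.3 and 122.3 CPM in MET-KO cells. The log2 fold change of 0.44 (SE 0.10, adjusted p = 0.00048) was 0.14 less the median of chromosome 21, which was itself at 0.30, and stayed at 0.44 less the median of the genes not called. Collagen VI needs more than this chain, and the partner COL6A2 was at 0 in every library. COL6A6 (ENSG00000206384, chromosome 3), an alternative chain, had 0 counts in MET+ and 10 and 14 in MET-KO cells, at least 3.39-fold higher (adjusted p = 0.000158). It no longer reached the low-count filter without MET-KO replicate 1 or without MET-KO replicate 2, so the call was not available there. COL18A1 (ENSG00000182871, chromosome 21), the basement membrane collagen from which endostatin is cut, had 3.02 and 3.89 CPM in MET+ and 10.4 and 7.91 CPM in MET-KO cells. It rose by a log2 fold change of 1.39 (SE 0.28, adjusted p = 8.76e-05), or 1.09 less the median of its chromosome and 1.39 less that of the genes not called. The exception in direction was COL17A1 (ENSG00000065618, chromosome 10), a transmembrane collagen of hemidesmosomes, with 49.8 and 45.3 CPM in MET+ and 39.5 and 32.4 CPM in MET-KO cells. It fell by 0.40 on the log2 scale (SE 0.12, adjusted p = 0.00644), a call lost with DESeq2 (adjusted p = 0.0721), without MET+ replicate 1 (adjusted p = 0.0507) and without MET-KO replicate 2 (-0.26, adjusted p = 0.157). COL13A1, another transmembrane collagen, had 2.77 and 2.77 CPM in MET+ and 3.52 and 2.85 CPM in MET-KO cells (log2 fold change 0.20, SE 0.37, adjusted p = 0.683). COL4A3BP (ENSG00000113163, chromosome 5), the ceramide transfer gene, had 32 and 38.3 CPM against 17.8 and 15.3 CPM, a log2 fold change of -1.09 (SE 0.15, adjusted p = 1.53e-07) and -0.66 less the median of chromosome 5, or -1.0 less that of the genes not called.

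Among the 11 matrix glycoproteins, 5 were tested (median log2 fold change 2.5). Of these, 3 were higher (60%) and none lower, beside 27.2% and 26.9% of all tested genes. The 3 higher genes had 4 to 19 counts per MET+ library, and a gene that low can pass the filter through MET-KO libraries alone. The summed level of the 11 genes was 22.7 and 20.4 CPM in MET+ and 137.8 and 148.0 CPM in MET-KO cells. The ratio was 6.64, and most of it was THBS1. The promoters of THBS1, COL12A1, TNC and LAMA3 are shown, the first 3 from genes with a wide rise and LAMA3 from a laminin gene with a wide fall. COL6A6, COL4A5 and COL5A3 had larger fitted rises than TNC, and LAMA2 had a larger fall than LAMA3, but these are not shown. The genes shown were chosen after their values were seen. The sequences are the 250 bases before an annotated start, read on the gene's strand from RefSeq on GRCh38.p14. THBS1 lies at chr15:39580829-39581078 on the plus strand, COL12A1 at chr6:75206054-75206303 and TNC at chr9:115118158-115118407 on the minus strand, and LAMA3 at chr18:23872770-23873019 on the plus strand, before a start inside the gene. Capitals mark the motif letters found on either strand, which are GGAATG (TEAD), TGANTCA (AP-1) and GGGCGG (SP1).
THBS1: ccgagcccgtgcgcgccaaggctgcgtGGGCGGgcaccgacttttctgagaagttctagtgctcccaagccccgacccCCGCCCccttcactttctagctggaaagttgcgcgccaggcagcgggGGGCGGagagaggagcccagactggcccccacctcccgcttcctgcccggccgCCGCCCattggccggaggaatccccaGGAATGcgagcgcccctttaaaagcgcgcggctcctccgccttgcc
COL12A1: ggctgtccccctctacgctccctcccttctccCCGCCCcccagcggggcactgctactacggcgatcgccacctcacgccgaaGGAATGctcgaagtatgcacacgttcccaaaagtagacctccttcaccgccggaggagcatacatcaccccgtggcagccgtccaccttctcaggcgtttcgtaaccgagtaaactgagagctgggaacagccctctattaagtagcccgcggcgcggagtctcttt
TNC: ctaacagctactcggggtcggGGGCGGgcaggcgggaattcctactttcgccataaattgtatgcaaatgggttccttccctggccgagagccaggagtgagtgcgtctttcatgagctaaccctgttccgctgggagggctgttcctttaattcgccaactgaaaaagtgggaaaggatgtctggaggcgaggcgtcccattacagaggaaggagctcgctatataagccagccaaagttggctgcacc
LAMA3: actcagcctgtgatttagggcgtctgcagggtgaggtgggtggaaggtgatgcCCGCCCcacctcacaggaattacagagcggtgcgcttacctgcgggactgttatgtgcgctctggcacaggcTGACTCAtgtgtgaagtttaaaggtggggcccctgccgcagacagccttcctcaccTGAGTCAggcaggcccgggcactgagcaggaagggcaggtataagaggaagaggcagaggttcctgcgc
The TEAD letters began at -46 in THBS1 and at -167 in COL12A1, and the AP-1 letters at -125 and -69 in LAMA3, counted from the start. The window for the shares ran from 250 bases before to 50 after a start. In it, the TEAD letters were in 2 of the 14 genes higher in MET-KO cells with a promoter (14.3%). They were also in 1 of the 6 lower genes, LAMA2 (16.7%), beside 16.7% of all 27305 genes. The AP-1 letters were in none of the 14 higher genes and in 2 of the 6 lower genes, LAMA3 and LAMB3, beside 9.37% of all genes. The SP1 letters were in 12 of the 14 (85.7%) and 3 of the 6 (50%), beside 48.3% of all genes. They were also in 34 of the 51 matrix genes with a promoter (66.7%), tested or not. The TATA letters TATAAA were in 2 of the higher genes (14.3%) and 1 of the lower (16.7%), beside 14%. All genes here means every gene with a promoter, tested or not, so a motif commoner in expressed genes would also raise these shares. These matches describe letters and not binding, and 51 of the 68 genes had a promoter in the table.

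THBS1 (ENSG00000137801, chromosome 15, 39581079 to 39599466) encodes thrombospondin-1, a secreted protein that binds cells, matrix and growth factors. It had 9 and 4 counts in MET+ and 920 and 1146 in MET-KO cells, or 1.09 and 0.41 CPM against 90.1 and 105.3 CPM. This was the widest gap among the tested matrix genes with counts in both groups, at a log2 fold change of 7.06 (SE 0.22, adjusted p = 5.78e-24) and a ratio of counts per depth of 136.0 (exact interval 79.3 to 255.8). With 13 counts in MET+ cells its size is loosely set, and it ran from 6.47 without MET+ replicate 2 to 7.86 without MET+ replicate 1. The median of chromosome 15 was -0.43, so the change less that median was 7.48, and 7.12 less the median of the genes not called. TNC (ENSG00000041982, chromosome 9, 115019578 to 115118257) encodes tenascin-C, a large glycoprotein of developing and healing tissue. It had 12 and 19 counts in MET+ and 180 and 129 in MET-KO cells, a log2 fold change of 3.09 (SE 0.30, adjusted p = 9.12e-11). FN1 (ENSG00000115414, chromosome 2, 215360440 to 215436172), fibronectin, had 9 and 11 counts in MET+ and 73 and 60 in MET-KO cells, a log2 fold change of 2.5 (SE 0.39, adjusted p = 1.59e-06). All 3 rose, and each had under 2 CPM in both MET+ libraries. Both linkers of the basement membrane that were tested missed the threshold. HSPG2, perlecan, had 14.6 and 13.9 CPM in MET+ and 18 and 18.8 CPM in MET-KO cells (log2 fold change 0.37, SE 0.17, adjusted p = 0.0653), and passed with library totals alone (0.47, adjusted p = 0.0264) and when every library had to reach 10 counts (0.41, adjusted p = 0.047). NID2, nidogen-2, had 3.5 and 2.56 CPM against 3.72 and 4.6 CPM (0.47, SE 0.35, adjusted p = 0.264), or 0.98 less the chromosome 14 median of -0.51 and 0.61 less that of the genes not called.

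**Figure D3:**
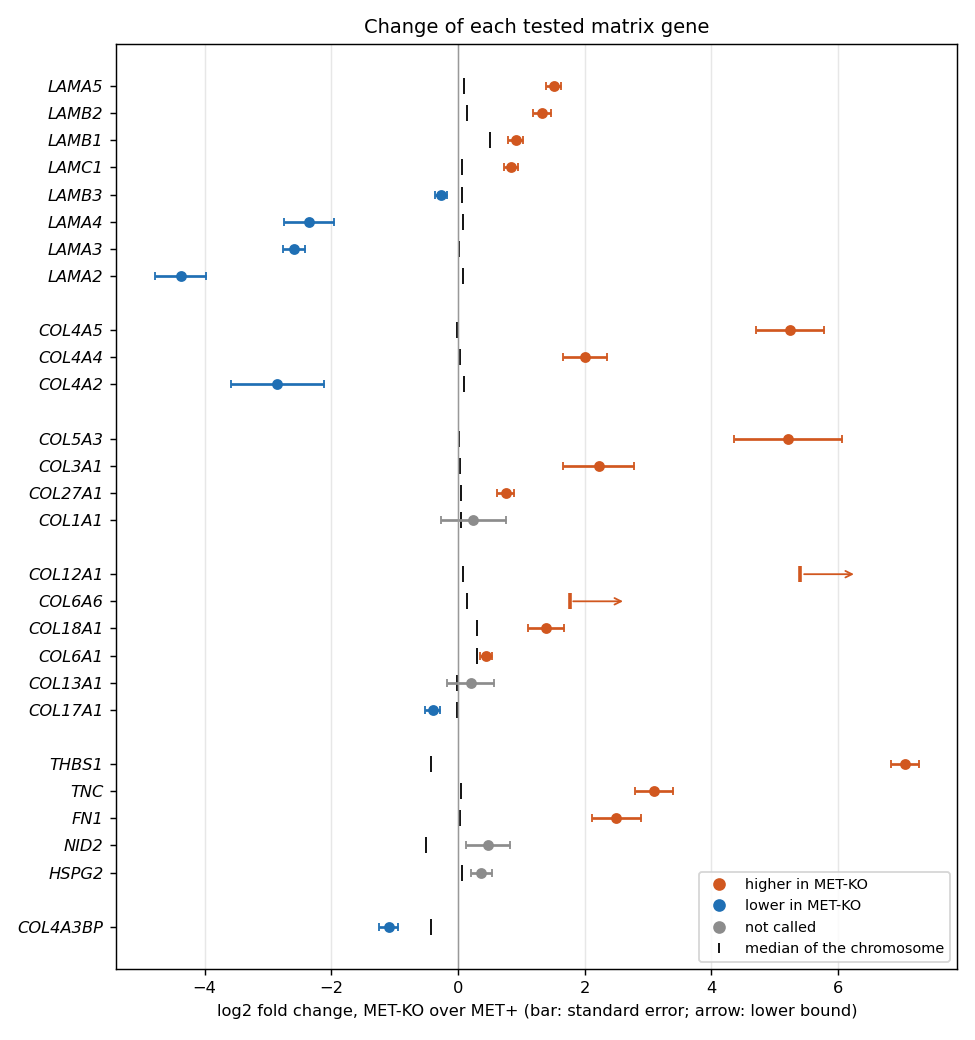
Log2 fold change of MET-KO over MET+ for 27 of the tested genes, with bars for the standard error, arrows for lower bounds where MET+ libraries were at 0, and black ticks for the median of all tested genes of the chromosome. Orange genes are higher, blue genes lower and grey genes not called; THBS1 stands at 7.06 and LAMA2 at -4.38, and the chromosome medians lie between -0.51 and 0.50.

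The other 40 genes were too low to be tested, and their highest count in any library was 18. In all, 16 were at 0 in every library, among them NID1, THBS2, COL1A2, COL6A2 and LAMB4, and 10 had 1 to 3 counts over all libraries. The remaining 14 had more. Of these, 5 were at 0 in both MET+ libraries, namely COL4A1 and COL4A3 above, SPARC (5 and 8 counts in MET-KO cells, at least 1.83-fold higher), LAMA1 (13 and 6, at least 2.73-fold higher) and FBN2 (0 and 5). COL16A1, a collagen associated with fibrils, had the opposite order, with 17 and 9 counts in MET+ and 6 and 6 in MET-KO cells, a ratio of 0.395 (exact interval 0.182 to 0.811, counting error only). COL7A1, the anchoring fibril collagen, had 7 and 6 counts in MET+ and 7 and 18 in MET-KO cells, and AGRN, the basement membrane proteoglycan agrin, 2 and 3 against 6 and 6. FBN1, the microfibril protein fibrillin-1, had 6 and 1 counts in MET+ and 2 and 1 in MET-KO cells. When the low-count filter was dropped, 24 of the 40 genes could be fitted and 3 passed, all higher in MET-KO cells, namely COL4A3 (adjusted p = 0.0198), LAMA1 (adjusted p = 0.00344) and SPARC (adjusted p = 0.0275), of which DESeq2 called LAMA1 alone (adjusted p = 0.0251). Over all genes, 7547 of 23153 were called without that filter. No change of the other 21 was called, which does not show that they were equal.

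Some counts may be shared with other genes. The sources used here do not give the strand setting of the counting. Whether the counts of a gene leave out reads of an opposite-strand neighbour is therefore not known. In the last 500 bases of their transcripts, LAMA5 meets ADRM1 (6467 counts in all, not called), LAMB1 meets DLD (5477, higher, log2 fold change 0.54), NID2 meets RTRAF (7344, lower, -0.53) and COL18A1 meets SLC19A1 (1616, not called). The values of these genes are less certain for that reason. THBS1 meets FSIP1, which had 31 counts in all.

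Genes that act on these matrix proteins are read against the same background of 27.2% of all tested genes higher and 26.9% lower. Of 33 genes of collagen processing, 22 were tested, with 11 higher (50%) and 5 lower (22.7%, under the background), and a median log2 fold change of 0.75. PLOD2, which hydroxylates collagen lysines, had 9.65 and 13.6 CPM in MET+ and 27.2 and 31.9 CPM in MET-KO cells (log2 fold change 1.33, SE 0.17, adjusted p = 4.55e-08). P3H2, a prolyl 3-hydroxylase that acts on collagen IV, was lower, at 116.8 and 115.0 CPM against 37.0 and 39.7 CPM (-1.59, SE 0.11, adjusted p = 8.21e-15). The summed level of this list was 1115.8 and 1137.1 CPM in MET+ and 1130.6 and 1037.6 CPM in MET-KO cells, so the groups overlapped although many of its genes changed. PCOLCE, an enhancer of procollagen cleavage, had 6.15 and 6.25 CPM in MET+ and 14.8 and 13.6 CPM in MET-KO cells (1.19, adjusted p = 1.67e-05), and P3H4 22 and 23.2 against 42.9 and 43.4 CPM (0.93, adjusted p = 2.11e-07).

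Of 20 receptors for collagen and laminin, 15 were tested, with 6 higher (40%) and 5 lower (33.3%), not far from the background (median -0.19). ITGA2, the alpha chain of a collagen receptor of epithelia, had 98.2 and 97 CPM in MET+ and 14.7 and 13.1 CPM in MET-KO cells (log2 fold change -2.82, SE 0.12, adjusted p = 1.05e-19). ITGB4, the hemidesmosome integrin chain that binds laminin-332, had 243.9 and 242.7 CPM in MET+ and 63.9 and 65.9 CPM in MET-KO cells (-1.91, SE 0.10, adjusted p = 5.18e-18). Both fell, as did the laminin-332 chain LAMA3. The hemidesmosome collagen COL17A1 and the laminin-332 chain LAMB3 fell less (-0.40 and -0.27), and both calls were lost in several settings. In the other direction, CD44, a receptor for hyaluronan and matrix proteins, had 88.4 and 79.1 CPM against 231.5 and 239.1 CPM (1.49, adjusted p = 4.92e-15), and SDC4, a matrix-binding proteoglycan of the cell surface, had 68 and 70.9 against 179.9 and 157.6 CPM (1.28, adjusted p = 6.69e-13). Of 9 receptors for fibronectin and related ligands, 6 were tested, with 1 higher (16.7%) and 2 lower (33.3%). ITGA5, the alpha chain of the main fibronectin receptor, fell by 1.42 on the log2 scale (15.9 and 16.7 CPM against 7.24 and 4.96 CPM, adjusted p = 1.05e-06), the opposite direction to FN1.

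Of 58 other matrix glycoproteins and proteoglycans, 18 were tested, of which 5 rose and 5 fell (27.8% each), near the background in both directions, and the median was -0.02. FRAS1, a basement membrane protein, had 5.67 and 3.18 CPM in MET+ and 28.4 and 35.9 CPM in MET-KO cells (log2 fold change 2.89, adjusted p = 1.3e-13). FBLN5, an elastic fibre protein, went from 34.7 and 31.8 to 9.1 and 9.93 CPM (-1.80, adjusted p = 2.08e-11), TINAGL1 from 408.7 and 390.1 to 230.9 and 205.5 CPM (-0.87, adjusted p = 8.16e-10) and LTBP3 from 8.69 and 7.58 to 23.6 and 26.2 CPM (1.62, adjusted p = 2.68e-09). In the CCN family of small matricellular proteins, 3 of 6 genes were tested and all 3 were higher in MET-KO cells. CYR61 had 9.65 and 6.87 CPM in MET+ and 581.5 and 511.1 CPM in MET-KO cells (log2 fold change 6.06, adjusted p = 8.66e-28). CTGF had 1.33 and 1.23 CPM in MET+ and 24.1 and 23.9 CPM in MET-KO cells (4.22, adjusted p = 1.21e-15). Of the list genes named, ITGA2, ITGA5, PCOLCE and FBLN5 lie on chromosomes 5, 12, 7 and 14, whose medians were -0.43, -0.32, 0.50 and -0.51.

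**Figure D4:**
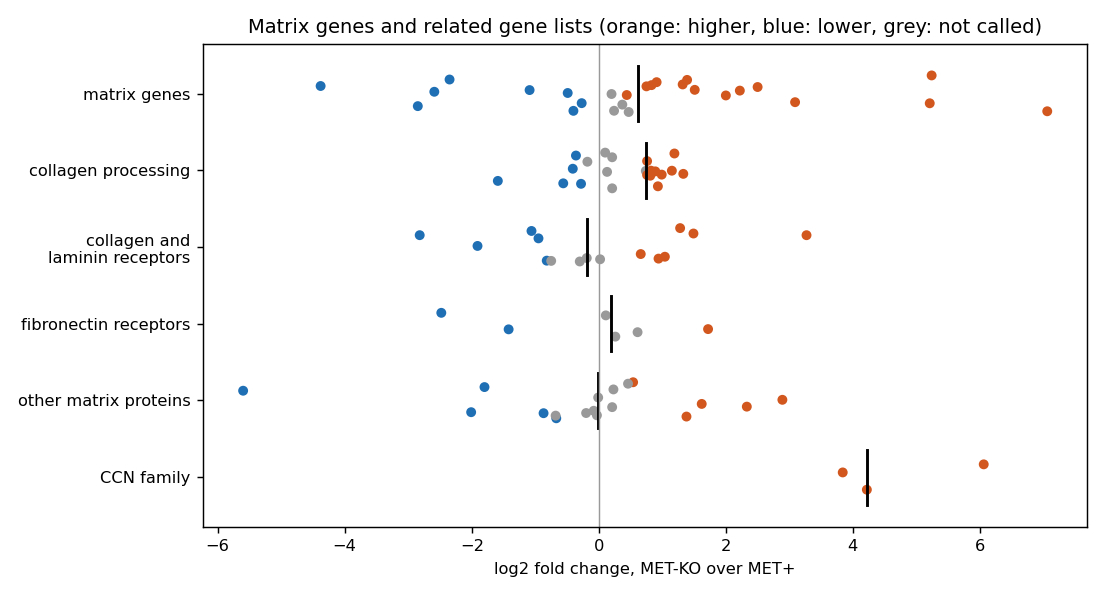
Log2 fold change of MET-KO over MET+ for the matrix genes and related lists, 1 point for each tested gene with counts in both groups (orange higher, blue lower, grey not called; vertical scatter has no meaning), with a black line at the median of the points. Points of the matrix genes run from -4.38 to 7.06 with a median of 0.61, and those of collagen processing from -1.59 to 1.33 with a median of 0.74.

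Markers of cell types were read beside these values. The colon epithelium markers had a summed level of 9651.8 and 9686.8 CPM in MET+ and 8306.5 and 7324.1 CPM in MET-KO cells. Nearly all of this sum was KRT18, KRT19 and KRT8, which are keratins of simple epithelia in general. Of the 12 genes, 11 were tested, 2 were higher and 8 lower, and CDX1 was at 0 in every library. Several intestinal markers were at or near 0 in 1 of the groups. GPA33 (35 and 39 counts in MET+) and PHGR1 (88 and 111) were at 0 in both MET-KO libraries, and LGALS4 went from 89 and 107 counts to 1 and 1. The 2 higher genes were KRT20 and CDX2. KRT20 was at 0 in MET+ and had 27 and 28 counts in MET-KO cells. CDX2, an intestinal transcription factor, had 63.3 and 66.4 CPM in MET+ and 144.6 and 123.0 CPM in MET-KO cells (log2 fold change 1.04, adjusted p = 1.93e-10). The fibroblast list had a summed level of 2.17 and 3.38 CPM in MET+ and 39.8 and 43.6 CPM in MET-KO cells, which moved with the higher collagens and glycoproteins. It rested on 2 of 11 genes, PRRX1 (17, 31, 298 and 364 counts) and TCF21 (0, 1, 107 and 108 counts). The defining markers FAP, DCN, POSTN, TWIST2 and MEOX2 were at 0 in every library, and PDGFRA, PDGFRB, THY1 and LUM had at most 2 counts in any library. The endothelial list summed to 9.05 and 9.22 CPM in MET+ and 4.4 and 3.31 CPM in MET-KO cells, with KDR, TEK, CDH5 and CLDN5 at 0. Most of it was 1 gene, ESAM (6.51 and 7.48 against 4.11 and 3.03 CPM). The leukocyte list summed to 6.15 and 9.94 against 0.979 and 1.1 CPM, with PTPRC, MS4A1 and CD3E at 0. Most of its MET+ sum was LYZ (4.58 and 8.09 CPM). The smooth muscle list stayed under 1 CPM in every library (0.844, 0.307, 0.685 and 0.368 CPM), with MYOCD and CNN1 at 0. The part of PRRX1 and TCF21 in the matrix results was not tested.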

How the data were processed

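RNA from 2 MET+ and 2 MET-KO samples of LoVo cells was sequenced as QuantSeq 3′ libraries, made with the FWD version of the kit. As deposited by the authors, each table holds raw counts of reads per gene without normalization. The submitters' processing notes name bcl2fastq, cutadapt 1.16, FastQC 0.11.7, MultiQC 1.5, STAR 2.5.4a, featureCounts 1.6.2, DESeq2 1.18.1 and GRCh38, and the annotation release and strand setting are not given in the sources used here. The tables have 58825 gene rows and 99 spike-in rows with 0 counts. Symbols and positions came from GENCODE release 29, which held 58552 of the genes.

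Counts were tested in R 4.3.3 with edgeR 4.0.16 (filterByExpr by group, TMM scaling, quasi-likelihood test, condition as the only term) with Benjamini-Hochberg adjustment over 13801 genes at 0.05. The code was tested on simulated data. CPM were TMM-normalised. The standard error was the log2 fold change divided by the root of F. Where MET+ libraries were at 0, a bound against 3 counts per library was given. Every tested matrix gene is named except 1, which is counted but not reported here. From each related list, at most 4 genes with the largest change past the threshold and a mean log2 CPM of at least 3 are named. Where a list had more than these, the rest are counted. The matrix genes, lists and alternatives were chosen with earlier results of these data known. Alternatives were DESeq2 1.42.0, its size factors, library totals, other filters, a fold threshold, a replicate block, leaving out each library, and chromosome medians over genes not called. Protein sequences were not used here. Plots were made with matplotlib 3.10.9 under Python 3.11.15.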

Additional observations from a re-analysis of the deposited data

How the results depend on the processing

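MET-KO cells had 16 of 28 matrix genes higher and 8 lower (median 0.79 on the log2 scale, 7467 calls over all genes). With DESeq2's Wald test on unfiltered counts, 17 were higher and 5 lower among 39 matrix genes given an adjusted p (median 0.98 over 52 fitted, 5406 calls among 16869 genes). Without a low-count filter, 19 of 52 were higher and 8 lower (median 0.96), with 7547 calls among 23153 genes. With at least 10 counts in every library, 10 of 18 were higher and 5 lower (median 0.49), with 6219 calls among 11844 genes. That filter also removes genes that are low in 1 group only, among them THBS1 and COL12A1. With a log2 fold change of at least 1, 12 were higher, 5 lower and 3355 called over all genes. With a mean of at least 100 counts, a setting chosen after seeing the data, 7 were higher and 5 lower. When each library was left out in turn, 15 to 17 were higher and 6 to 8 lower, the median ran from 0.42 (without MET-KO replicate 2) to 0.89, and 6289 to 7083 genes were called over all. Scaling by library totals alone gave 17 higher, 7 lower, a median of 0.89 and mean summed levels of 607.1 CPM (MET+) and 883.8 CPM (MET-KO), against 628.3 and 853.2 CPM. The cause of these shifts was not tested. COL1A1, which was not called, changed sign without MET+ replicate 2 (-0.06) and without MET-KO replicate 2 (-0.01), and ran up to 0.56 without MET+ replicate 1.

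The replicate block gave 16 higher and 8 lower, a median of 0.79 and 7055 calls over all genes, and changed no call among the matrix genes. Differences between replicates 1 and 2 correlated at -0.0216 between the groups. This value cannot show whether equal numbers share a culture or a day, and the sources used here do not say. Depth limits the 40 untested genes, and 2 libraries a group limit the estimate of the spread.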
